A study of Mus musculus with 36 samples.

Results

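The comparison set 2 libraries of mouse nephron progenitor cells (NPCs) given Cre mRNA, and so meant to lose β-catenin, against 2 libraries without Cre, all 4 after culture in high CHIR. CHIR inhibits the kinase GSK3β, which otherwise marks β-catenin for destruction, and "high" was 5 µM against the 1.25 µM ("low") used to maintain the cells. The members were chosen by label alone: the libraries titled 5um chir cre pos and cre neg, 4 of the 36 libraries of the series and 4 of the 16 in the table that holds the β-catenin experiments. Of the 26863 gene IDs in that table, the 16780 whose normalized counts averaged 10 or more over its 16 libraries were tested.

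All 4 cultures came from embryonic day 16.5 kidneys homozygous for a conditional β-catenin allele (genotype B-catenin_c_c), in which loxP sites flank exons 2 to 6 of Ctnnb1. The donor mice were Swiss Webster or C57Bl/6, which the labels do not separate by library. NPCs were isolated by magnetic depletion with antibodies to CD105, CD140, Ter119 and CD326, which mark endothelial, stromal, red blood and epithelial cells, held overnight in low CHIR, transfected for 3 h with mRNA for Cre and for the fluorescent protein mCherry, returned to low CHIR for 24 h and moved to high CHIR for a further 24 h. Positive cells for mCherry were sorted before RNA isolation. The study's text describes knockout and control cells alike as reporter positive, and the labels do not give per library which mRNAs the Cre-negative cells received. A further 4 groups lent context: the same conditional cells with and without Cre in low CHIR, and Cas9-eGFP NPCs with guides to Ctnnb1 or to GFP in high CHIR. The same Cas9 groups in low CHIR entered only the shared estimate of the spread. A separate set of 9 wild-type libraries, in no, low and high CHIR, gave the lists of CHIR-responsive genes used below. Each Cre and Cas9 group had 2 libraries, and the labels do not say that they were separate cultures, so the p-values measure the spread between these libraries, which may be technical.

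In the developing kidney, NPCs either renew themselves or turn into the epithelium of a new nephron. Canonical Wnt signalling stabilises β-catenin, which enters the nucleus and activates genes together with DNA-binding proteins of the Tcf/Lef family, and it takes part both in progenitor expansion and in the switch to nephron formation. β-Catenin also joins cadherins to the cytoskeleton at cell contacts. The comparison asks which parts of the expression programme of cells in high CHIR depend on β-catenin.

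Reads assigned to genes numbered 19808272 and 16465739 in the Cre-positive and 23148336 and 18927377 in the Cre-negative libraries, within the range of 14537850 to 27838106 over all 16. Across genes, replicates correlated with r of 0.952 to 0.980 in the 8 groups. Transcripts of the mitochondrial genome made up 2.0% and 2.18% of the normalized counts with Cre, and 1.12% and 1.41% without. The levels below are normalized counts, given as replicate 1 and replicate 2. Fold changes are Cre-positive over Cre-negative on the scale of log2(normalized count + 1) with the standard error of the fit (n = 2 libraries per group). The added 1 can understate the change of genes with few counts. Where 1 library of a group is near 0 and the other is not, the fitted change can exceed that between group means. A gene was called with limma when its adjusted p was under 0.05 and its log2 fold change at least 0.5 in size. As alternatives, edgeR and DESeq2 were run on whole reads recovered from the normalized values of 14 libraries, among them only 1 of the Cre-positive libraries in high CHIR, so that the other groups supplied its spread.

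The Ctnnb1 gene spans chr9:120929216-120960507 on the plus strand of GRCm38. Its mRNA stood at 2254 and 2583 with Cre and at 2423 and 2207 without Cre in high CHIR. The groups overlapped, and the log2 fold change was 0.06 ± 0.23 (adjusted p = 0.92). The floxed exons make up 984 of the 3623 bases (27.2%) of the reference transcript and 39.9% of its coding length, so most of the gene's exon sequence is retained in a recombined allele, and a count over the whole gene is no direct check of the deletion. The study checked removal by protein: its immunostaining found significantly less membrane β-catenin in Cre-transfected cells, before the change of CHIR dose. In the Cas9 cells the same gene stood at 1630 and 1270 with Ctnnb1 guides and at 2632 and 2701 with GFP guides, which limma and DESeq2 called lower (log2 -0.89, adjusted p = 0.043 by limma) and edgeR did not. The 2 effects on Ctnnb1 were not shown to differ with adjustment over all genes (difference 0.95, adjusted p = 1.00, unadjusted p = 0.012 by limma). Leaving out Cre-negative replicate 2 or Cre-positive replicate 2 turned the Cre value to -0.01 or -0.04.

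Cre changed the high-CHIR programme widely. With Cre, 990 of the 16780 genes were called higher (5.90%) and 462 lower (2.75%), together 8.65%. The called genes moved far: the median fitted log2 fold change was 1.80 for the higher and -1.51 for the lower genes, and 208 of the higher and 50 of the lower genes moved beyond 8-fold. The median over all genes tested was -0.02. The list medians below can be read against it, and the shares of list members called against 5.90% higher and 2.75% lower. The counts leaned on single libraries: without Cre-negative replicate 1 or 2 there were 642 or 672 higher and 196 or 276 lower genes, and without Cre-positive replicate 1 or 2 there were 689 or 620 higher and 283 or 295 lower.

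**Figure D1:**
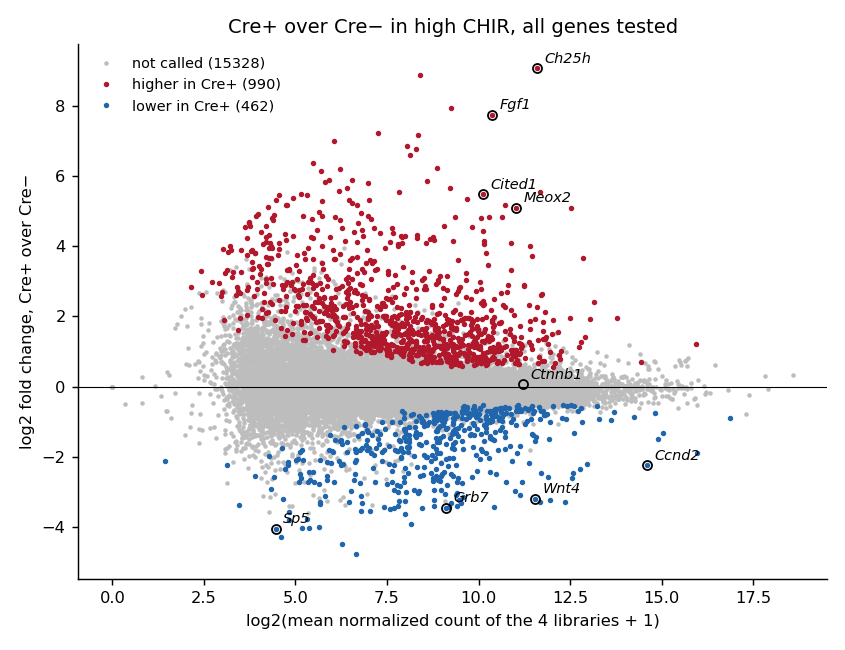
Log2 fold change of Cre-positive over Cre-negative NPCs in high CHIR (vertical axis) against the mean level of the 4 libraries (horizontal axis, log2 of normalized count + 1), 1 point per gene tested. Red points are the 990 genes called higher, blue points the 462 called lower and grey points the rest; 9 genes are circled, with Ctnnb1 close to 0, Ch25h at the top (9.09) and Sp5 near the bottom (-4.07).

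Genes of the self-renewing progenitor were among those raised most. Of 23 tested self-renewal genes, 9 were called higher and 3 lower with Cre. The 8 progenitor marker genes are all members of this list, and gave 6 of its higher calls and 1 of its lower calls. Cited1, a transcriptional coregulator that marks uninduced progenitors, stood at 2479 and 1855 with Cre and at 34.1 and 64.3 without. Every Cre-positive library was thus far above every Cre-negative one (log2 5.49 ± 0.44, adjusted p = 5.3e-06). In low CHIR without Cre, Cited1 stood at 8722 and 4402, so both Cre-positive libraries in high CHIR were below those levels. Meox2, a homeobox factor of the progenitors, stood at 4328 and 3831 with Cre and at 122 and 113 without (log2 5.11 ± 0.26, adjusted p = 1.3e-07). Its low-CHIR controls, at 3017 and 3256, were below the Cre-positive cells in high CHIR. Its relative Meox1 stood at 135 and 101 against 0.921 and 1.04, which is 1 read in each Cre-negative library. The ratio of summed reads was 123, with a 95% interval of 33.5 to 1019 that covers counting error only.

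Osr1, a zinc-finger factor needed for the nephron lineage, stood at 1765 and 2512 with Cre and at 115 and 79.9 without (log2 4.44 ± 0.33, adjusted p = 2.2e-06). Tmem100, a membrane protein of uninduced progenitors, stood at 2720 and 1562 against 118 and 112 (log2 4.15 ± 0.31). Robo2, the Slit receptor, stood at 5859 and 4657 against 417 and 379 (log2 3.71 ± 0.23). Beside the low-CHIR controls, Osr1 (1428 and 1507 there) was higher in both Cre-positive libraries of high CHIR, while Tmem100 (3016 and 1867) and Robo2 (5137 and 8264) each had 1 library within and 1 below that span. Crym, which binds thyroid hormone, varied between replicates within each group, at 5095 and 1733 with Cre and 497 and 174 without (log2 3.33 ± 0.60, adjusted p = 0.0032). The call on Crym was lost with both count-based tests (adjusted p = 0.057 by edgeR and by DESeq2), which held only its lower Cre-positive library. With limma it held without the other (adjusted p = 0.040).

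Six2, the transcription factor that maintains the progenitor state, moved much less. It stood at 1556 and 1558 with Cre and at 977 and 407 without (log2 1.30 ± 0.34, adjusted p = 0.029). The Cre-negative replicates differed from each other more than the Cre-positive did. The call was lost without Cre-negative replicate 2 (log2 0.67), without either Cre-positive library and with both count-based tests. Gas1, a membrane protein that aids growth factor signalling, stood at 3515 and 3087 against 1568 and 986 (log2 1.41), and its call was lost without Cre-negative replicate 2 or Cre-positive replicate 1. Eya1, the partner of Six2, was not called at 3777 and 3048 against 2934 and 1902 (log2 0.52 ± 0.21, adjusted p = 0.17).

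The other called genes of the self-renewal list were lower with Cre. Kdm2b, a histone demethylase, stood at 792 and 1118 with Cre and at 3759 and 4898 without (log2 -2.19 ± 0.25, adjusted p = 7.6e-05). Sall1, a zinc-finger factor of progenitors and early nephrons, stood at 2063 and 2000 against 6005 and 5584 (log2 -1.51 ± 0.23, adjusted p = 0.0010). For both genes the groups did not overlap, as for 17 of the 23 genes of the list and 47.3% of all genes tested. Itga8, the integrin chain through which progenitors bind nephronectin, stood at 2128 and 1088 against 5293 and 2928 (log2 -1.37, adjusted p = 0.013). The call on Itga8 was lost without Cre-negative replicate 1 or Cre-positive replicate 2, in the latter case with a log2 fold change of -0.89.

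**Figure D2:**
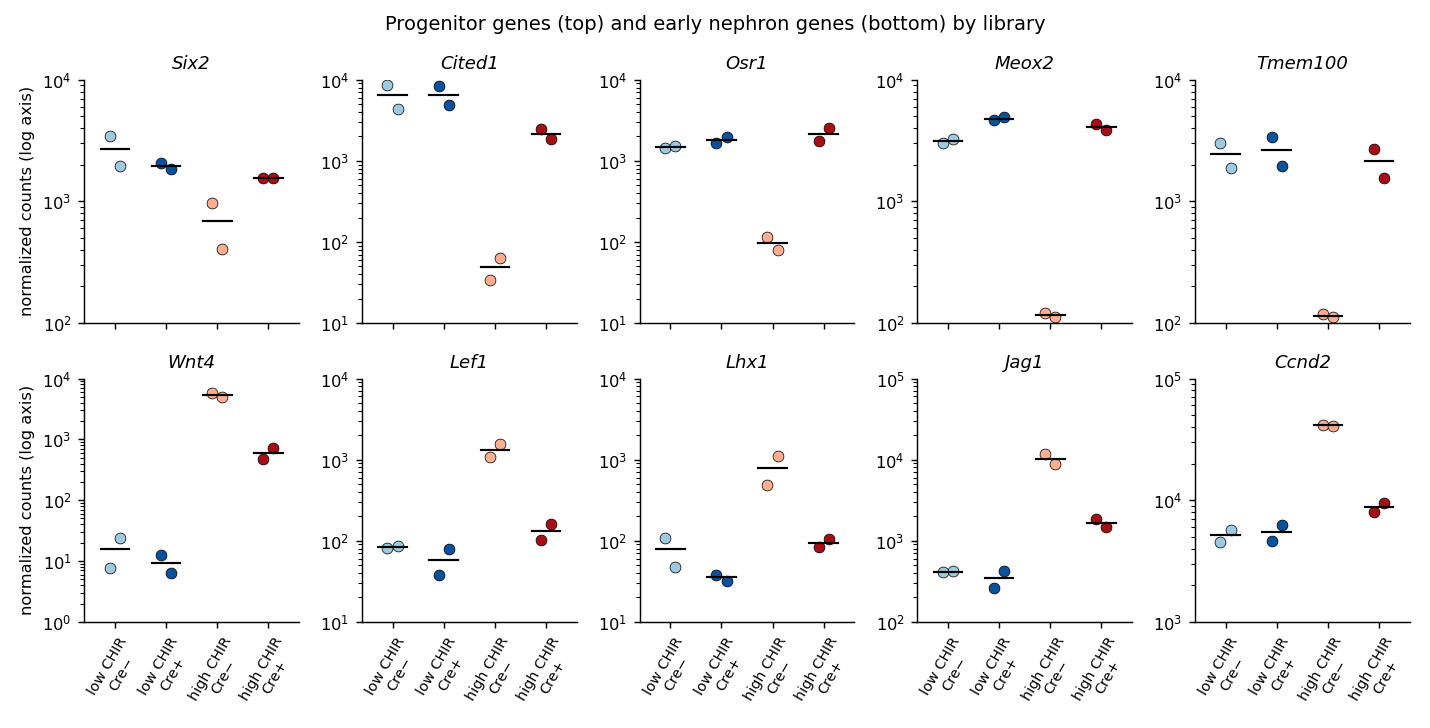
Normalized counts (log axis) of 5 progenitor genes (top) and 5 early nephron genes (bottom) in the conditional NPCs, with 1 point per library, a bar for the mean of 2 libraries and groups ordered as low CHIR without and with Cre, then high CHIR without and with Cre. Cited1, Osr1, Meox2 and Tmem100 are low only in high CHIR without Cre among these 4 groups, and the 5 early nephron genes are highest there.

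Genes of early nephron formation moved the other way. Of 31 tested genes, 17 were called lower with Cre and 4 higher, with a median log2 fold change of -1.54. Wnt4, the ligand that drives progenitors to become epithelium, stood at 479 and 720 with Cre and at 5798 and 5030 without (log2 -3.20 ± 0.44, adjusted p = 0.00042). In low CHIR without Cre it stood at 7.77 and 23.8, so the Cre-positive cells in high CHIR stayed above those libraries. Lef1, a Tcf/Lef factor and itself a Wnt target, stood at 102 and 161 against 1090 and 1568 (log2 -3.34 ± 0.45, adjusted p = 0.00038). Its low-CHIR controls were at 82.2 and 85.2, just below the Cre-positive cells. Jag1, a Notch ligand of the early nephron, stood at 1836 and 1481 against 11842 and 8707 (log2 -2.62 ± 0.28, adjusted p = 6.0e-05), and its low-CHIR controls at 412 and 418 were lower still.

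Lhx1, a homeobox factor of the renal vesicle, stood at 84.8 and 104 with Cre and at 485 and 1099 without (log2 -2.94 ± 0.44). Pax2, a paired-box factor of the nephron lineage, stood at 108 and 193 against 833 and 865 (log2 -2.55 ± 0.28). Ccnd2, which encodes cyclin D2, stood at 8063 and 9431 against 41485 and 41045 (log2 -2.24 ± 0.20, adjusted p = 1.3e-05). The groups did not overlap in 28 of the 31 genes, these included, where 47.3% of all genes tested did not. Ccnd2 varied little between replicates. Greb1, Dach1 and Ovol1 also fell, with log2 fold changes of -3.06, -2.26 and -3.46. C1qtnf12, which encodes a secreted protein, stood at 2191 and 2373 against 12565 and 11057 (log2 -2.37 ± 0.15, adjusted p = 4.2e-07).

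The 4 members of this list that were higher with Cre were Tnc, Foxc2, Sox9 and Dkk1. Tnc, a matrix glycoprotein, stood at 4106 and 6047 with Cre and at 352 and 269 without (log2 4.01 ± 0.34, adjusted p = 6.4e-06). Foxc2, a forkhead factor, stood at 164 and 168 against 45.1 and 12.4 (log2 2.74), and Sox9 at 2317 and 746 against 211 and 258 (log2 2.49). The call on Sox9 was lost without Cre-positive replicate 1. Dkk1, a secreted Wnt inhibitor, stood at 1384 and 3210 against 211 and 655 (log2 2.50 ± 0.71, adjusted p = 0.044), and its call was lost without Cre-negative replicate 1 or either Cre-positive library and with both count-based tests. Of the 17 lower calls, 11 held whichever library was left out, and those on Pax8, Bmp2, Cdh6, Papss2, Uncx and Nkd1 were lost in at least 1 case.

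Feedback targets of canonical Wnt signalling, which many tissues switch on when β-catenin is stable, were more often lower than higher. Of 22 tested, 10 were called lower and 2 higher (Dkk1 and Myc), with a median of -1.44. Axin2, a scaffold of the β-catenin destruction complex, stood at 61.6 and 75.3 with Cre and at 192 and 325 without (log2 -1.86 ± 0.42, adjusted p = 0.012). Znrf3, a ligase that removes Wnt receptors, stood at 1761 and 1487 against 4969 and 3903 (log2 -1.44 ± 0.16, adjusted p = 7.0e-05). Tnfrsf19, a receptor of the tumour necrosis factor family, stood at 226 and 143 against 1172 and 893 (log2 -2.50 ± 0.33). Notum, which inactivates Wnt ligands, stood at 3.03 and 4.86 against 38.7 and 49.8 (log2 -3.21 ± 0.66). The groups did not overlap in 16 of the 22 genes, where 47.3% of all genes tested did not. Only the calls on Znrf3, Lef1 and Tnfrsf19 held with every library left out in turn. With both count-based tests the lower calls on Nkd1, Notum and Sp5 were lost, and with edgeR also those on Axin2, Nkd2, Sfrp2 and Tcf7. The number called lower dropped to 3 without Cre-negative replicate 2, to 3 without Cre-positive replicate 1, to 7 without Cre-negative replicate 1 and to 8 without Cre-positive replicate 2.

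Sp5, a zinc-finger target of the pathway, stood at 0 and 4.86 with Cre and at 35.0 and 44.6 without (log2 -4.07 ± 0.94, adjusted p = 0.015). With a pseudocount of 5 the log2 fold change was -2.67, and the call was lost without Cre-negative replicate 1 or 2 or Cre-positive replicate 1. It was also lost with only the 4 libraries in the fit and with both count-based tests. Its promoter is shown because, of the lowered feedback targets with a promoter in the table, Sp5 is the gene whose upstream window holds the letters that Tcf/Lef proteins bind. The 250 bases before the start of Sp5 (RefSeq, GRCm38.p6, chr2:70474673-70474922, plus strand) have the match to CTTTGAT in capitals.
Sp5: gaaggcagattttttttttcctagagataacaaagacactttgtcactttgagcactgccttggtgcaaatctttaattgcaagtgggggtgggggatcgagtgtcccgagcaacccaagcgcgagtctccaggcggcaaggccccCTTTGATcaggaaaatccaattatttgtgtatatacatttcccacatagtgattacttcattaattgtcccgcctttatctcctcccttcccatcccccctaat
CTTTGAT or CTTTGAA on either strand, with overlaps allowed, was present in 7.69% of the 27025 RefSeq promoters of this length. It was present in 25 of 324 promoters of genes called lower (7.72%), in 33 of 725 of genes called higher (4.55%), and in 5.25% of the 10499 tested genes that matched a promoter. Among lowered feedback targets it occurred in 1 of 8 promoters, and among lowered early nephron genes in 1 of 12, that of Dach1. Of all 15 feedback targets with a promoter 2 held it, Sp5 and Dkk1, and Dkk1 was called higher with Cre. A match of letters is a description of these windows and says nothing of binding elsewhere.

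Among the Tcf/Lef factors, Lef1 and Tcf7 were lower and Tcf7l1 and Tcf7l2 higher with Cre. Tcf7l1, often a repressor of Wnt targets, stood at 1134 and 1670 with Cre and at 352 and 438 without (log2 1.81 ± 0.24, adjusted p = 0.00027). Tcf7 stood at 116 and 118 against 371 and 321 (log2 -1.55), and Tcf7l2 at 3696 and 2663 against 1845 and 1723 (log2 0.81). The groups did not overlap in any of the 3 genes, where 47.3% of all genes tested did not. The call on Tcf7 was lost with each library left out in turn, and that on Tcf7l2 without either Cre-negative library or Cre-positive replicate 1. Both were also lost with edgeR, and that on Tcf7l2 with DESeq2 and with only the 4 libraries in the fit. Of 23 receptors and destruction-complex genes, 3 were higher and 2 lower. The Frizzled receptor Fzd4 stood at 1599 and 2122 against 338 and 161 (log2 2.98 ± 0.28, adjusted p = 1.9e-05). It was the only one of these 5 calls that held with every library left out in turn.

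Of 6 Wnt ligands tested, Wnt4 was lower and Wnt2 higher. Wnt2 stood at 24.2 and 20.6 with Cre and at 0 in both libraries without, at least 15.4-fold higher against a floor of 3 reads over the group, and its fitted fold change depended on the pseudocount. In low CHIR without Cre, Wnt2 was at 54.4 and 58.6. In the Notch pathway, 1 of 18 genes was lower, Jag1, and 1 higher, where 2.75% and 5.90% of all genes tested were. The higher gene was Hes1, a repressor downstream of Notch, at 1086 and 781 against 253 and 294 (log2 1.75 ± 0.31, adjusted p = 0.0025). The Notch ligand and this target gene thus moved in opposite directions.

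Fgf signalling sustains NPCs, and Fgf1 was among the genes raised most. It stood at 3583 and 1700 with Cre and at 7.36 and 14.5 without (log2 7.76 ± 0.87, adjusted p = 7.3e-05). In low CHIR without Cre it was at 2174 and 2058, between the 2 Cre-positive libraries of high CHIR. Etv1, an ETS factor that responds to Fgf, stood at 3208 and 2953 against 771 and 603 (log2 2.17 ± 0.15, adjusted p = 1.4e-06). Spry4, a feedback inhibitor of Fgf signalling, stood at 2780 and 2299 against 951 and 732 (log2 1.60 ± 0.24). Fgf9, a ligand that keeps progenitors undifferentiated, went the other way, at 1462 and 572 against 8196 and 3181 (log2 -2.48 ± 0.51, adjusted p = 0.0077). Its replicates differed within both groups, and the call was lost without Cre-negative replicate 1 or Cre-positive replicate 2. Of 22 genes of the pathway, 3 were higher and 2 lower, Fgf9 and the receptor Fgfr2, with no lower call left without Cre-negative replicate 1 or Cre-positive replicate 2 and 1 left without Cre-positive replicate 1.

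In the BMP pathway 2 of 22 genes were higher and 5 lower. Bmper, a secreted protein that binds BMPs, stood at 12654 and 14530 with Cre and at 908 and 1234 without (log2 3.68 ± 0.33, adjusted p = 1.4e-05). The ligand Bmp6 stood at 56.5 and 40.1 against 4.6 and 3.11 (log2 3.34 ± 0.50). Bmp7, a survival factor of NPCs, fell from 512 and 221 to 62.6 and 29.1 (log2 -2.95 ± 0.57, adjusted p = 0.0052), and its call was lost without Cre-negative replicate 1 or Cre-positive replicate 2. The receptor Bmpr1b stood at 120 and 131 against 608 and 795 (log2 -2.46 ± 0.31). Id2, a target of BMP signalling, stood at 19175 and 19049 against 50251 and 45195 (log2 -1.32 ± 0.22, adjusted p = 0.0018). The ligands therefore moved in both directions. Without Cre-positive replicate 1 the counts were 4 higher and 3 lower, and without either Cre-negative library they were 2 and 3.

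**Figure D3:**
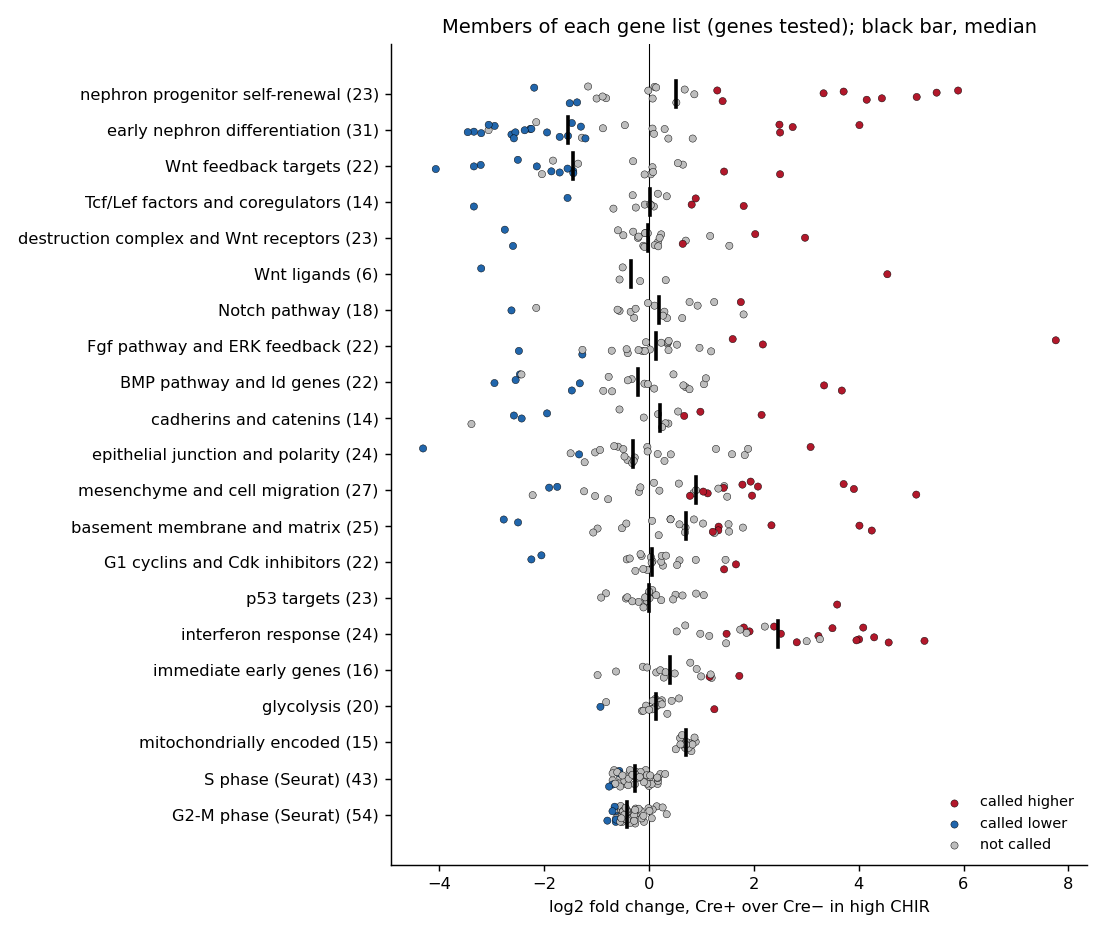
Log2 fold change of Cre-positive over Cre-negative NPCs in high CHIR for each tested member of 21 gene lists (number of members in brackets), with red for genes called higher, blue for lower, grey for not called and a black bar for the median. The interferon response lies wholly to the right of 0 (median 2.45), and early nephron differentiation (-1.54) and Wnt feedback targets (-1.44) have the lowest medians.

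Adhesion genes split by cadherin. Cdh4 and Cdh3 were lower, Cdh4 at 989 and 1222 with Cre against 6215 and 6915 (log2 -2.57 ± 0.23, adjusted p = 1.1e-05) and Cdh3 at 210 and 435 against 1376 and 1931 (log2 -2.43 ± 0.32). Cdh6, a cadherin of the early proximal nephron, stood at 275 and 555 against 1215 and 1862 (log2 -1.94), a call lost without Cre-negative replicate 2 or Cre-positive replicate 1. The mesenchymal cadherins Cdh2 and Cdh11 were higher by 0.98 and 0.67, and neither call held when Cre-negative replicate 1 or either Cre-positive library was left out. Both calls were lost with edgeR, and that on Cdh11 also with DESeq2. In all, 3 of 14 cadherin and catenin genes were higher and 3 lower, with no higher call left without Cre-negative replicate 1 or Cre-positive replicate 2. Of 24 genes of epithelial junctions and polarity, 1 was higher and 2 were lower, where 5.90% and 2.75% of all genes tested were.

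Among genes of mesenchyme and cell migration more were higher than lower, with 11 of 27 called higher, 2 lower and a median of 0.90. Cxcl12, a chemokine, stood at 8972 and 14095 with Cre and at 353 and 304 without (log2 5.10 ± 0.34, adjusted p = 9.3e-07). Its low-CHIR controls, at 2141 and 3580, lay between. Zeb1, a repressor of epithelial genes, stood at 1331 and 1008 against 271 and 276 (log2 2.08 ± 0.21, adjusted p = 2.9e-05). Timp2, an inhibitor of matrix proteases, stood at 1126 and 1575 against 315 and 367 (log2 1.97 ± 0.23). The genes lowered were Epha4, a guidance receptor (log2 -1.75 ± 0.33), and the semaphorin Sema3c, at 187 and 227 against 803 and 745 (log2 -1.90 ± 0.27). The higher calls numbered 6 without Cre-negative replicate 1, 6 without Cre-positive replicate 2, 9 without Cre-negative replicate 2 and 11 without Cre-positive replicate 1.

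Matrix genes gave 6 higher and 2 lower of 25. The laminin chain Lama2 stood at 503 and 704 with Cre and at 22.1 and 41.5 without (log2 4.25 ± 0.75, adjusted p = 0.0026), and the basement membrane protein gene Nid1 at 2236 and 3166 against 444 and 624 (log2 2.34 ± 0.44). Frem2, also of epithelial basement membrane, was lower and stood at 165 and 217 against 1303 and 1286 (log2 -2.77 ± 0.36).

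The summed level of 12 stromal marker genes was 10550 and 18155 with Cre against 5901 and 8053 without, and Pdgfrb, which defines much of the renal stroma, was at 1494 and 1818 against 701 and 603. None of the 11 stromal markers tested was called by limma, edgeR or DESeq2 (4 were higher at an unadjusted p under 0.05, as were 12.5% of all genes tested), and the part of such cells in the results on mesenchyme and matrix was not tested. In bulk libraries, fewer cells of a type and less RNA per cell cannot be told apart. Of 3 endothelial markers tested, Emcn (911 and 523 against 35.9 and 43.6) and Plvap (249 and 409 against 59.8 and 50.8) were higher, while the defining genes Pecam1, Cdh5, Kdr and Tie1 were between 0 and 21.9 in all 4 libraries. The 10 endothelial genes summed to 1690 and 1212 with Cre and 323 and 297 without, and their part in the results was not tested. Of 8 proximal tubule markers only 1 was tested, and limma did not call it. It was lower (log2 -1.86) at an unadjusted p under 0.05, as were 8.27% of all genes tested. The 8 markers summed to 40.4 and 41.3 with Cre and to 46.0 and 42.5 without. Markers of the distal nephron summed to 83.8 and 118 against 208 and 474, with none of the 3 tested called by limma, edgeR or DESeq2 and 2 lower at an unadjusted p under 0.05, as were 8.27% of all genes. Of 3 blood and 6 ureteric markers none was called by limma, edgeR or DESeq2 and none had an unadjusted p under 0.05, and Synpo alone of 7 podocyte markers was higher, at 46.4 and 52.2 against 2.76 and 1.04 (log2 4.18 ± 0.65).

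Cell-cycle genes that passed the test were all lower, by small amounts. Of 43 S-phase genes, 4 were lower (median log2 -0.27), and of 54 genes of G2 and mitosis, 6 were lower (median -0.42), with none higher in either list by limma, edgeR or DESeq2, nor at an unadjusted p under 0.05. At that unadjusted level 14 of the 43 and 26 of the 54 genes were lower, where 8.27% of all genes tested were, and the groups did not overlap in 21 and 39 genes, where 47.3% of all genes did not. By contrast, edgeR called 0 and 1 and DESeq2 0 and 2. Aurka, a mitotic kinase, stood at 1515 and 1689 with Cre and at 2667 and 2515 without (log2 -0.69 ± 0.16, adjusted p = 0.013). No one of these calls held with every library left out in turn: the lower calls for G2 and mitosis were 0, 1, 1 and 2, and those for S phase 0, 2, 0 and 5, without Cre-negative replicates 1 and 2 and Cre-positive replicates 1 and 2. With Ctnnb1 guides in high CHIR the S-phase median was -0.27 and that of G2 and mitosis -0.003. On Cre in low CHIR these medians were -0.38 and -0.52. For the Cre minus the Cas9 effect, 12 of the 54 genes of G2 and mitosis were more negative at an unadjusted p under 0.05 by limma. None was more positive at that level and none was called, where 3.34% of all genes reached it in either direction. The growth regulators gave larger changes with Cre in high CHIR, in opposite directions. Mycn stood at 172 and 172 with Cre and at 846 and 606 without (log2 -2.05 ± 0.30, adjusted p = 0.00064). Myc stood at 1816 and 1718 against 932 and 459 (log2 1.43 ± 0.30, adjusted p = 0.0077), a call lost without Cre-negative replicate 2 (log2 0.92). Hexokinase genes also differed, with Hk1 higher by 1.25 and Hk2 lower at a log2 of -0.93, and no other gene of the 20 IDs of glycolysis was called. Of 16 immediate early genes, Nr4a1 and Klf6 were higher (log2 1.72 and 1.16), and neither call held without Cre-negative replicate 2 or Cre-positive replicate 2. Among 23 p53 targets only Fas, a death receptor, was called, at 286 and 233 against 19.3 and 21.8 (log2 3.59 ± 0.36). Over all genes tested, 8.65% were called in either direction.

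Genes of the interferon response, by which cells react to viral or foreign nucleic acid, had positive fold changes with Cre throughout. Of 24 tested, limma called 14 higher, edgeR 7 and DESeq2 12, and none was lower by these tools or at an unadjusted p under 0.05. The median log2 fold change was 2.45. Both Cre-positive libraries exceeded both Cre-negative ones in all 24 genes, where 47.3% of all genes tested had groups that did not overlap in either direction. Isg15, a ubiquitin-like protein, stood at 568 and 318 with Cre and at 34.1 and 12.4 without (log2 4.30 ± 0.77, adjusted p = 0.0029). Oas1a, a sensor of double-stranded RNA, stood at 240 and 120 against 5.52 and 2.07 (log2 5.25 ± 0.62, adjusted p = 0.00012). Ddx58, which encodes the RNA sensor RIG-I, stood at 329 and 268 against 44.2 and 59.1 (log2 2.52 ± 0.44, adjusted p = 0.0024). In each of these the Cre-negative libraries were low but not at 0. Mx2, an antiviral GTPase, was at 35.3 and 14.6 with Cre and at 0 in both libraries without, at least 17.7-fold higher against a floor of 3 reads over the group.

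The calls in this list depended on the libraries kept. They numbered 5 without Cre-positive replicate 1, 8 without Cre-negative replicate 2, 11 without Cre-negative replicate 1 and 12 without Cre-positive replicate 2, and only those on Isg15, Oas1a, Oasl2, Ifi27 and Ddx58 held every time. Ifit1, a protein that binds foreign RNA, stood at 529 and 295 against 47.9 and 11.4 (log2 4.01 ± 1.13, adjusted p = 0.042). Its call was lost with any 1 library left out and with both count-based tests.

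The promoters of 3 members are shown because they hold the interferon-stimulated response element, through which the factors activated by interferon bind DNA. The element was searched as TTTC, any 2 bases and TTTC again on both strands, with overlaps allowed, in the 250 bases before the start (RefSeq, GRCm38.p6), and matches are in capitals. The windows are chr4:156200819-156201068 (minus strand) for Isg15, chr19:34640639-34640888 (plus strand) for Ifit1 and chr5:120907526-120907775 (minus strand) for Oas1a.
Isg15: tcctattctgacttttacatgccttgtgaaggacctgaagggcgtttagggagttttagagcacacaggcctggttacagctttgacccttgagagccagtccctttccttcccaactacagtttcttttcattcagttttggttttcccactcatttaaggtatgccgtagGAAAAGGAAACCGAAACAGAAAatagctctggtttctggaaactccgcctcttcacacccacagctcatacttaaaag
Ifit1: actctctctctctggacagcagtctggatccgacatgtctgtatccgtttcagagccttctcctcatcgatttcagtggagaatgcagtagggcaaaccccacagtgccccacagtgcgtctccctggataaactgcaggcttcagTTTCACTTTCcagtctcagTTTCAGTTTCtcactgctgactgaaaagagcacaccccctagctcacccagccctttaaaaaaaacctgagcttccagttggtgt
Oas1a: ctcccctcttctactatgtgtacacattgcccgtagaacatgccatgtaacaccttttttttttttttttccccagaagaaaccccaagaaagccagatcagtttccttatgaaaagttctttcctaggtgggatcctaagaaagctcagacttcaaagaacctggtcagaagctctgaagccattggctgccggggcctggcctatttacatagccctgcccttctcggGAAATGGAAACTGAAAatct
The element was present in 13 of the 22 list members with a promoter (59.1%), in 5 of 10 among those called higher, and in 3.05% of all 27025 promoters. Among all genes called higher it was present in 28 of 725 promoters (3.86%).

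The interferon genes differed from the progenitor and nephron genes in the companion experiments. In low CHIR, Isg15 stood at 435 and 256 with Cre and at 23.3 and 27.5 without, close to the levels in high CHIR. The list median on Cre in low CHIR was 2.32, with 2 of 24 genes called there. In the Cas9 cells, Isg15 stood at 277 and 62.5 with Ctnnb1 guides and at 217 and 74.7 with GFP guides, and the list median was 0.20, with no gene called by limma or edgeR, 1 by DESeq2 and 2 at an unadjusted p under 0.05. For the difference between the Cre and the Cas9 effect, the list median was 2.40 and 17 of 24 members were more positive at an unadjusted p under 0.05, as were 1.88% of all genes, but none was called by limma, edgeR or DESeq2 (Oas1a 4.70, adjusted p = 0.40). Cas9 cells carried the interferon transcripts in both groups: the summed level of the list was 5508 and 3450 with Ctnnb1 guides and 4540 and 2461 with GFP guides, against 9196 and 5964 in Cre-positive and 1756 and 1270 in Cre-negative cells in high CHIR. The 15 mitochondrially encoded genes had a median of 0.71 on Cre in high CHIR and 1.03 in low CHIR. In high CHIR none was called by limma, edgeR or DESeq2 and none had an unadjusted p under 0.05. What part the transfected mRNA or RNA quality had in these values was not tested.

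The genes raised most, outside the lists, were nearly silent in high CHIR without Cre. Such low levels are no finding here, since ranking by fold change favours genes with few counts in the Cre-negative libraries. Ch25h, which makes 25-hydroxycholesterol, stood at 7029 and 5379 with Cre and at 4.6 and 21.8 without (log2 9.09 ± 0.47, adjusted p = 1.3e-07). In low CHIR without Cre it was at 2793 and 2429, so high CHIR without Cre was the only one of the 4 conditions with a low level. Rgs4, a regulator of G-protein signalling, stood at 1401 and 1021 against 4.6 and 3.11 (log2 7.96 ± 0.48, adjusted p = 3.8e-07). Fam19a4, which encodes a secreted peptide, stood at 744 and 611 against 0 and 1.04, a single read in Cre-negative replicate 2. The ratio of summed reads was 1402, with a 95% counting interval of 251 to 55401. Dusp27, of the dual-specificity phosphatase family, stood at 111 and 149 against 0 in both, at least 87.8-fold higher against the same floor of 3 reads. The GTPase genes Tgtp1 and Tgtp2, induced by interferon in many cells, stood at 777 and 514 and at 746 and 497 with Cre, against 3.11 to 6.44 without. The pair are near-identical copies, and reads that match both equally would be left out of a count of uniquely aligned reads. Both genes were also higher with Ctnnb1 guides (log2 5.50 and 5.06).

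Among the 12 genes lowered most, Grb7, an adaptor of receptor tyrosine kinases, stood at 90.9 and 91.1 with Cre and at 964 and 1065 without (log2 -3.46 ± 0.29, adjusted p = 6.4e-06). Alx4, a homeobox factor, stood at 25.2 and 36.4 against 391 and 316 (log2 -3.49 ± 0.63), and Chrna6, a nicotinic receptor subunit, at 32.3 and 35.2 against 583 and 478 (log2 -3.93 ± 0.67). In these genes the replicates lay close together. Separation of the groups is no finding here, since the choice of the 12 required groups that do not overlap. For Slc15a3 and Sptlc3, the 2 lowest at -4.80 and -4.50, the Cre-positive libraries differed, and without Cre-positive replicate 1 the values were -3.04 and -2.87 with neither called. Of the 12 genes, 5 kept their calls with every library left out in turn: Chrna6, Alx4, 2610028E06Rik, Grb7 and Ovol1.

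The response of wild-type NPCs to CHIR, measured in a separate table of 9 libraries, was set beside these changes. High over low CHIR raised 694 and lowered 628 of 17411 genes there (3.99% and 3.61%), of which 574 and 607 were tested here. Of the genes raised by high CHIR in wild-type cells, 132 (23.0%) were called lower with Cre and 19 higher, with a median of -0.59. Of the genes lowered by high CHIR, 259 (42.7%) were called higher and 18 lower, with a median of 1.04. Of the 15113 other genes, 676 were higher and 309 lower, with a median of -0.02. The genes lowered by high CHIR thus made up 26.2% of the 990 genes called higher with Cre. Those raised by high CHIR made up 28.6% of the 462 called lower. Cre in low CHIR left the medians of both wild-type lists near 0, at 0.08 and 0.03. The Cre effect in high CHIR was thus opposite in sign to the wild-type CHIR response in the median of each list.

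**Figure D4:**
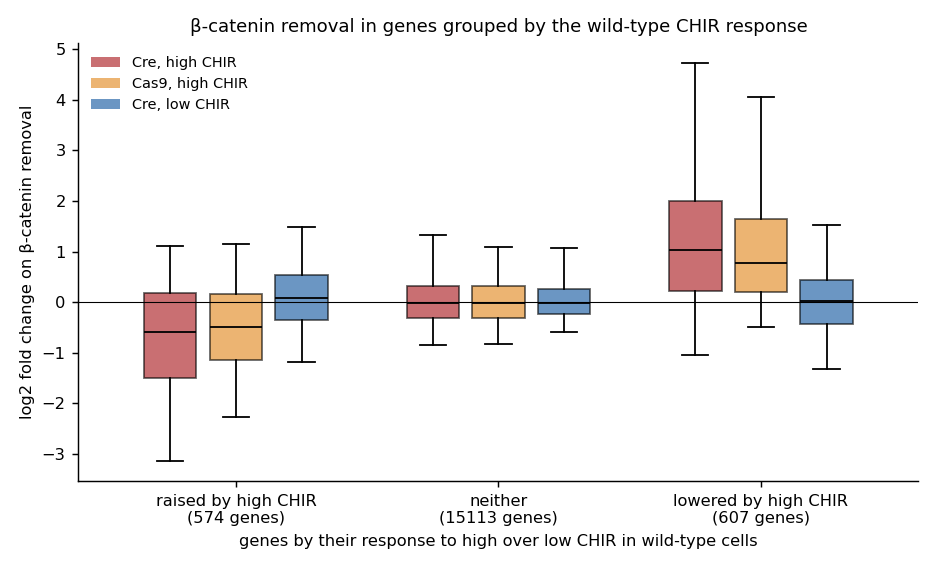
Log2 fold change on β-catenin removal (vertical axis) for genes grouped by the response of wild-type NPCs to high over low CHIR (574, 15113 and 607 genes), with a box from the 25th to the 75th percentile, a line at the median and whiskers at the 5th and 95th percentiles. In high CHIR, Cre and Cas9 shifted the raised genes down (medians -0.59 and -0.49) and the lowered genes up (1.04 and 0.77); with Cre in low CHIR the medians were 0.08 and 0.03.

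Removal by Cas9 in high CHIR, in cells of another genotype and with no library in common, called fewer genes, 578 higher (3.44%) and 276 lower (1.64%), together 5.09%. Of the 990 genes higher with Cre, 453 were called higher with Ctnnb1 guides, which is 45.8% of the Cre list and 78.4% of the Cas9 list. Of the 462 lower with Cre, 173 were lower with the guides, 37.4% of the Cre and 62.7% of the Cas9 list. The sign was shared by 975 of the 990 and 441 of the 462, and no gene called with both went opposite ways. Across all genes tested the 2 effects correlated with r of 0.774, a description over genes, which are not independent replicates. Cited1 stood at 1956 and 2261 with Ctnnb1 guides and at 37.5 and 94.8 with GFP guides, much as with Cre, and Wnt4 at 1240 and 847 against 5135 and 5973. A test of the difference between both effects called no gene with limma, with 560 genes (3.34%) at an unadjusted p under 0.05. With edgeR it also called none, and with DESeq2 it called 4 in each direction. Without Cre-negative replicate 2, limma called 1, and with the replicate number as a block it called 17 more positive and 3 more negative.

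In low CHIR, Cre called far fewer genes, 30 higher (0.179%) and 25 lower (0.149%). The effect of Cre was more positive in high than in low CHIR for 125 genes (0.745%) and more negative for 42 (0.250%) by the test of the difference itself, and 8.51% of genes had an unadjusted p under 0.05 in it. The most positive differences included Ch25h (8.01 ± 0.67), Fgf1 (6.82 ± 1.22), Cited1 (5.45, adjusted p = 0.00053) and Meox2 (4.49, adjusted p = 0.00013), and the called negative differences included Ccnd2 (-2.32, adjusted p = 0.00099) and Jag1 (-2.32, adjusted p = 0.011). Wnt4 and Lef1, whose Cre effects in low CHIR were -0.56 and -0.60, did not pass that test (differences -2.64 and -2.74, adjusted p = 0.072 and 0.071). Mycn and Tnfrsf19 had similar fitted values in both doses: Mycn was at a log2 of -2.05 in each (adjusted p of the difference = 1.00), and Tnfrsf19 at -2.50 in high and -2.82 in low CHIR (difference 0.32, adjusted p = 0.90).

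**Figure D5:**
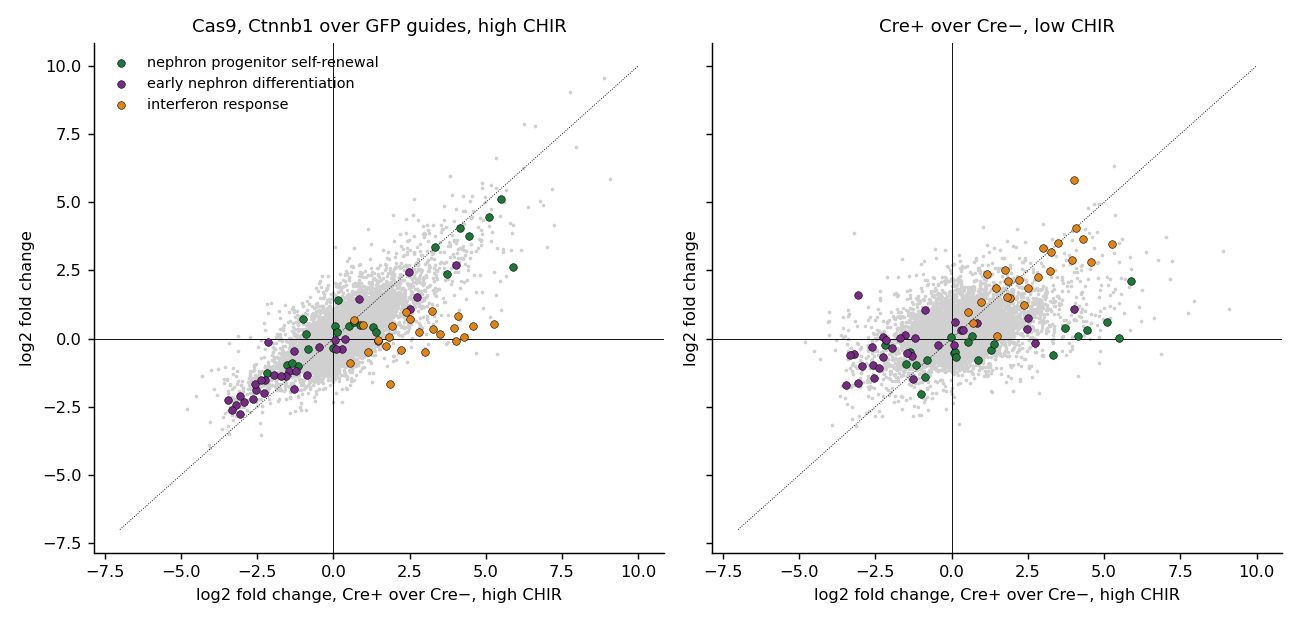
Log2 fold change on Cre in high CHIR (horizontal axes) against that with Ctnnb1 over GFP guides in high CHIR (left) and on Cre in low CHIR (right), 1 point per gene tested, with self-renewal genes in green, early nephron genes in purple and interferon genes in orange, and a dotted line of equal effects. Interferon genes lie near 0 on the left (median 0.20) and near the line on the right (median 2.32).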

How the data were processed

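Per the labels and methods, the authors made SMARTer cDNA libraries, sequenced them with paired-end reads of 150 bases on a NovaSeq, aligned them with STAR to a reference joining mouse GRCm38 with human GRCh38 and counted uniquely aligned reads per gene with featureCounts. The deposited values are normalized counts (signal, counts divided by DESeq2 size factors, according to the authors). Tables of the authors' own fold changes and p-values were not used, nor were 11 sample columns of a separate Tcf/Lef table. Of 26863 gene IDs, 26800 matched a symbol.

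Values were taken to log2(value + 1) and fitted with limma 3.58.1 (R 4.3.3; lmFit, eBayes with trend) over 16 libraries in 8 groups of 2, with Benjamini-Hochberg adjustment over 16780 genes with a mean of at least 10. Differences between effects were contrasts of the same fit. Wild-type lists came from the same fit of 9 libraries, with a log2 cut of 1. Normalized counts were whole multiples of 1 read, so edgeR 4.0.16 and DESeq2 1.42.0 were run on recovered reads of 14 libraries; Cre-positive replicate 1 in high CHIR and 1 Cas9 library, whose read steps were within 1% of 1, were left out of these tests. The scripts were tested on simulated data. Lists are described by counts and medians, with no set test. Named genes are list members, the 12 raised most and 12 lowered most among called genes with a mean of at least 50 and no overlap between groups, and the 5 largest called differences in each direction. The lists and the comparison were chosen with earlier results of these data known. Intervals and floors cover counting error only. One gene of the matrix list is counted but not reported here by name.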

Additional observations from a re-analysis of the deposited data

Results flagged for a closer look

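A test of the difference between the Cre effect in high and in low CHIR drew attention to the following genes. It called 125 genes with a more positive and 42 with a more negative effect in high CHIR. Among progenitor genes the difference in log2 fold change was 5.45 for Cited1, 4.49 for Meox2, 4.14 for Osr1, 4.04 for Tmem100, 3.92 for Crym and 3.32 for Robo2, with Kdm2b at -1.95. Among early nephron genes it was -2.32 for Jag1, -2.32 for Ccnd2, -1.59 for Cdh4 and -1.30 for C1qtnf12, with Tnc at 2.91.

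Among Wnt components the difference was 1.75 for Tcf7l1, 2.58 for Fzd4 and 4.55 for Wnt2. Wnt2 was at 0 in both Cre-negative libraries of high CHIR, so its fitted difference is no exact size: it was 2.45 with a pseudocount of 5 and 7.35 with edgeR, and neither was called. Among Fgf and BMP genes it was 6.82 for Fgf1, 1.81 for Etv1, 3.50 for Bmp6 and 2.99 for Bmper. Adhesion, migration and matrix genes included Cdh3 (-2.47), Zeb1 (1.88), Epha4 (-2.14), Cxcl12 (2.85) and Nid2 (1.77). The p53 target Fas stood at 2.31.

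The largest differences among called genes with a mean of at least 50 that are not given above were 8.01 for Ch25h, 7.42 for Spag11b, 6.59 for Rgs4 and 5.86 for Olfml2a, and on the other side -4.34 for Sv2b, -3.44 for Vegfc, -3.29 for Htr3a, -3.17 for Lhfpl2 and -2.93 for Mpped2. Mpped2 was not called on Cre in high CHIR itself (log2 -0.79, adjusted p = 0.29), where its levels were 215 and 398 with Cre and 596 and 432 without. In low CHIR its levels were 272 and 382 with Cre and 73.3 and 71.4 without. The differences of 17 of these 34 genes kept their call under every alternative run, among them Ch25h, Cited1, Osr1, Meox2, Ccnd2 and Cxcl12. The other 17, among them Fgf1, Jag1, Wnt2, Fas and Mpped2, lost it with at least 1 library left out or with another test.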

How the results depend on the processing

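Pseudocounts of 0.5 and 5, no filter or a filter at 50, and TMM scaling left the counts of genes called on Cre in high CHIR within 1.5 times of 990 higher and 462 lower. With a replicate block (pairs by replicate number, which the labels do not say mark a shared culture) the counts were 1718 and 921, those for the difference between high and low CHIR 379 and 147, and those for the difference between Cre and Cas9 17 and 3. Deviations of same-numbered libraries from their group means correlated by 0.463 in the high-CHIR Cre groups, 0.334 in the low-CHIR Cre groups and 0.297 in the Cas9 groups. With only the 4 libraries in the fit the counts were 430 and 194. edgeR called 241 lower genes and DESeq2 465. For the difference between doses, edgeR called 19 more negative, and DESeq2 200 more positive and 78 more negative. For the difference between Cre and Cas9, DESeq2 called 4 and 4.

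Leaving out 1 library at a time gave 620 to 689 higher and 196 to 295 lower genes, 91 to 112 and 21 to 37 for the difference between doses, and 0 to 1 and 0 to 0 for Cre against Cas9. Ctnnb1 ranged from -0.037 to 0.16. Of 140 named genes, 253 of 1804 values lost the call and none changed sign. The block, pseudocount 5, TMM and the filter at 50 changed no call among them. With only the 4 compared libraries in the fit, 40 of the 140 genes lost the call, among them Six2, Foxc2 and Hk2. Those calls thus rested on the spread shared with the other libraries. With 2 libraries per group, small changes and genes with few reads were the least certain.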
